A study of Bos taurus with 32 samples.

Results

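The bovine genes ENSBTAG00000017280, ENSBTAG00000001474, ENSBTAG00000012121 and ENSBTAG00000005658, were followed through 4 tissues of bull calves that came from embryos made in the laboratory or in the cow. They are 4 of the 27607 Ensembl gene IDs in the count table. They were chosen by a measured value, the difference between the embryo origins in the pituitary, and for showing less of it elsewhere. The origin differences below, in the pituitary and in the other 3 tissues, are therefore a description and carry no test. The files pair none of these IDs with a gene name, so no function is given for them.

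The pituitary lies under the hypothalamus, receives releasing hormones from it through portal blood, and sends out the hormones that drive the testicle and the adrenal cortex. Its anterior lobe is made of endocrine cells, while its posterior lobe holds glia and the axon endings of hypothalamic neurons, so a whole gland contains both endocrine and neural tissue. Embryos produced in vitro mature, are fertilised and begin to divide in culture medium, and calves born from them are compared with calves from embryos that began development in the donor cow.

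All calves were male Holsteins carried by recipient cows and kept under similar conditions. The IVP group (in vitro production) held calves 3208, 3209, 5833 and 5841. The MOET group (embryos from superstimulated, inseminated donors, the study's controls) held calves 3213, 3217, 3218 and 5932. Of the 8 calves, 7 were 98 to 104 days old at sampling and MOET calf 3213 was 144 days old. Each calf gave 1 library of poly(A) RNA from the pituitary, hypothalamus, testicle and adrenal, which makes 32 libraries, and replicates are separate animals. Library totals ran from 17357283 to 23380330 counts, and from 20164948 to 23380330 in the pituitary. Levels are given as CPM, the counts of a gene relative to the library total after scaling with TMM factors over all 32 libraries. They are not divided by transcript length, so levels are compared between libraries and tissues for 1 gene and not between genes. In whole-tissue RNA, fewer cells of a type and less RNA per cell cannot be told apart.

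In the pituitary, 3 of the 4 genes were lower in IVP calves and ENSBTAG00000001474 was higher. IVP and MOET calves did not overlap for any of them. Groups were apart in the same way, lower in IVP, for 9.60% of the 15807 genes tested there, and higher in IVP for 13.4%. All 4 passed the threshold (adjusted p under 0.05 in edgeR's quasi-likelihood test). So did 7.78% of genes downward and 7.51% upward. The 4 were chosen for this difference, so nothing is read from that count.

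ENSBTAG00000017280 had the widest pituitary difference of the 4. Its level was 36.8 CPM in IVP calf 3208, 34.7 CPM in 3209, 33.2 CPM in 5833 and 38.1 CPM in 5841. In MOET calves it was 178 CPM in 3213, 77.7 CPM in 3217, 230.1 CPM in 3218 and 244 CPM in 5932. The IVP calves lay close together at the bottom and the MOET calves were spread out above them, with 3217 nearest to the IVP range. Group means were 35.7 ± 2.17 CPM (IVP) and 182 ± 75.4 CPM (MOET; SD, n = 4), from 642 to 832 and from 1526 to 5172 counts per library. The highest MOET level was 3.14 times the lowest, against 1.15 times in IVP. The fitted log2 fold change of IVP over MOET was -2.37 (SE 0.33), a 5.17-fold lower level, and 25 of the 2417 genes called in the pituitary differed by more. Leaving out MOET 3217 moved the log2 fold change to -2.62, and leaving out MOET 5932 to -2.20.

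ENSBTAG00000001474 moved the other way. It was at 59.2 CPM in IVP 3208, 51.4 CPM in 3209, 50.8 CPM in 5833 and 70.2 CPM in 5841, and at 20.0 CPM in MOET 3213, 18.1 CPM in 3217, 22.8 CPM in 3218 and 19.9 CPM in 5932. Each IVP pituitary held between 2.51 and 3.48 times the MOET mean. The log2 fold change was 1.50 (SE 0.11), or 2.83-fold, with means of 57.9 ± 9.08 and 20.2 ± 1.94 CPM (SD, n = 4).

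ENSBTAG00000012121 and ENSBTAG00000005658 differed less in size. The former varied little within both groups, the latter only within MOET calves. ENSBTAG00000012121 was at 36.2, 38.6, 38.2 and 37.4 CPM in IVP calves 3208, 3209, 5833 and 5841, and at 54.2, 52.4, 55.6 and 54.0 CPM in MOET calves 3213, 3217, 3218 and 5932. Its coefficient of variation was 2.80% in IVP and 2.43% in MOET, where the median gene tested in the pituitary had 8.47% and 9.14%. The log2 fold change was -0.54 (SE 0.04), a 1.45-fold lower level in IVP, and 583 of the 2417 called genes differed by more. ENSBTAG00000005658 was at 61.1, 64.9, 62.6 and 54.4 CPM in the same IVP calves and at 98.1, 95.7, 96.7 and 100.2 CPM in the MOET calves, with a log2 fold change of -0.70 (SE 0.06), or 1.63-fold lower. The coefficient of variation of ENSBTAG00000005658 was 7.49% in IVP, not far under the median gene, and 2.00% in MOET. Small spread enters the p-value and so may have been part of what chose both genes.

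**Figure D1:**
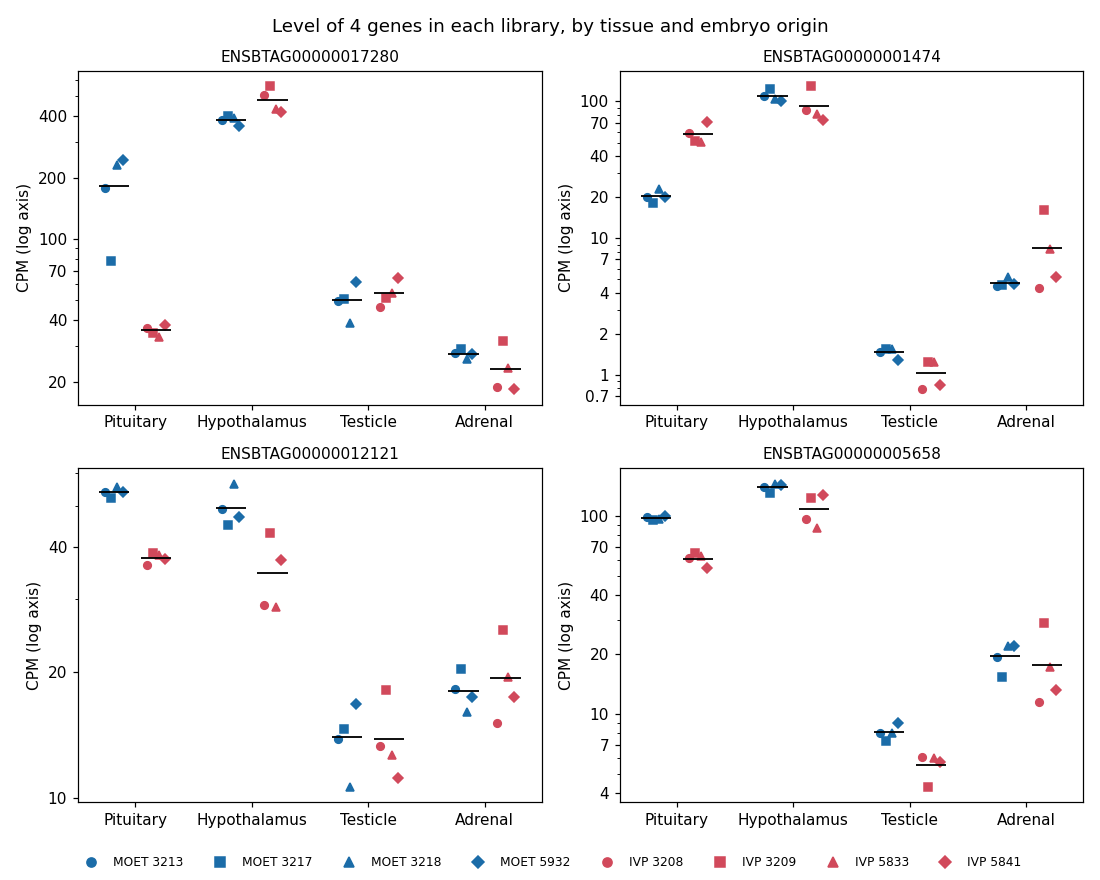
CPM on a log axis for each of the 4 genes (1 panel each) in each of the 32 libraries, by tissue, with MOET calves in blue, IVP calves in red, a marker shape per calf and a bar at the group mean. In the pituitary the IVP and MOET points are apart for all 4 genes, and in the adrenal they overlap for all 4.

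The oldest calf, MOET 3213, lay between the lowest and the highest of the other 3 MOET pituitaries for each of the 4 genes. With age as a covariate, 266 genes in place of 2417 were called in the pituitary. The 4 genes, chosen for this difference, were among them. Without MOET 3213, 378 genes were called. Only this calf was older than 104 days, so age and animal cannot be told apart, and an effect of age was not tested.

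The label of a pituitary-restricted difference did not hold for every gene once sizes were set beside calls. In the other tissues none of the 4 genes passed the threshold in the fit of that tissue. The background was 0.0560% of genes in the hypothalamus, 0.00612% in the testicle and 39.3% in the adrenal. Calls of the 4 genes for origin, here and below, describe the fits and carry no test, because the genes were chosen on this contrast. ENSBTAG00000012121 had nearly the same log2 fold change in the hypothalamus as in the pituitary, -0.52 (SE 0.15) beside -0.54 (SE 0.04), and what set the tissues apart was its spread: the coefficient of variation was 20.2% in IVP and 10.3% in MOET hypothalami, beside 2.80% and 2.43% in the pituitary. With all 32 libraries in 1 fit and 1 shared estimate of spread, this gene was called in the hypothalamus, with 11.1% of all genes, and not in the pituitary, where that fit called 1.86%. DESeq2 and limma voom with the calf as a block also called it in the hypothalamus, where they called 8.10% and 10.8% of all genes.

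In the hypothalamus ENSBTAG00000012121 was at 29.0 CPM in IVP 3208, 43.2 CPM in 3209, 28.7 CPM in 5833 and 37.1 CPM in 5841, against 49.2, 45.0, 56.6 and 47.0 CPM in MOET 3213, 3217, 3218 and 5932. The groups did not overlap, and IVP 3209 lay just under MOET 3217. ENSBTAG00000005658 was also lower in each IVP hypothalamus, at 96.6, 122, 86.3 and 128 CPM against 139.8, 131, 145 and 144 CPM (log2 fold change -0.37, SE 0.13). Among all genes, 4.97% were apart and lower in IVP in this tissue. When counts were divided by library totals alone, without TMM factors, the groups of both genes overlapped.

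ENSBTAG00000017280 ran in opposite directions in the hypothalamus and pituitary. Its hypothalamic level was 506 CPM in IVP 3208, 563 CPM in 3209, 435 CPM in 5833 and 421 CPM in 5841, above the 385, 401, 391 and 359 CPM of MOET 3213, 3217, 3218 and 5932. The log2 fold change was 0.33 (SE 0.11), and the groups were apart under each of the 4 scalings that were compared (TMM over all libraries, TMM within the tissue, DESeq2 size factors and library totals alone). Among all genes, 5.01% were apart and higher in IVP in the hypothalamus. ENSBTAG00000001474 overlapped between the origins there, with means of 92.2 ± 25.5 CPM (IVP) and 109 ± 10.1 CPM (MOET; SD, n = 4), and IVP 3209 was the highest of all 8 calves at 129.6 CPM.

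In the testicle, ENSBTAG00000005658 was at 6.08 CPM in IVP 3208, 4.30 CPM in 3209, 6.02 CPM in 5833 and 5.77 CPM in 5841, and at 8.01, 7.29, 8.09 and 9.01 CPM in MOET 3213, 3217, 3218 and 5932. Every IVP calf was below every MOET calf under all 4 scalings. The log2 fold change was -0.53 (SE 0.15), beside -0.70 (SE 0.06) in the pituitary, and DESeq2 called this gene in the testicle, where it called 1.80% of all genes. ENSBTAG00000001474 was read at only 18 to 36 counts per testicle library. Its level was 0.787 to 1.25 CPM in IVP and 1.30 to 1.55 CPM in MOET calves, a log2 fold change of -0.48 (SE 0.21) against the rise in the pituitary. The gap between these groups closed with library totals alone and with TMM factors taken within the testicle. Among all genes, 4.80% were apart and lower in IVP in the testicle. ENSBTAG00000017280 and ENSBTAG00000012121 overlapped there, with log2 fold changes of 0.13 (SE 0.16) and 0.01 (SE 0.20).

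**Figure D2:**
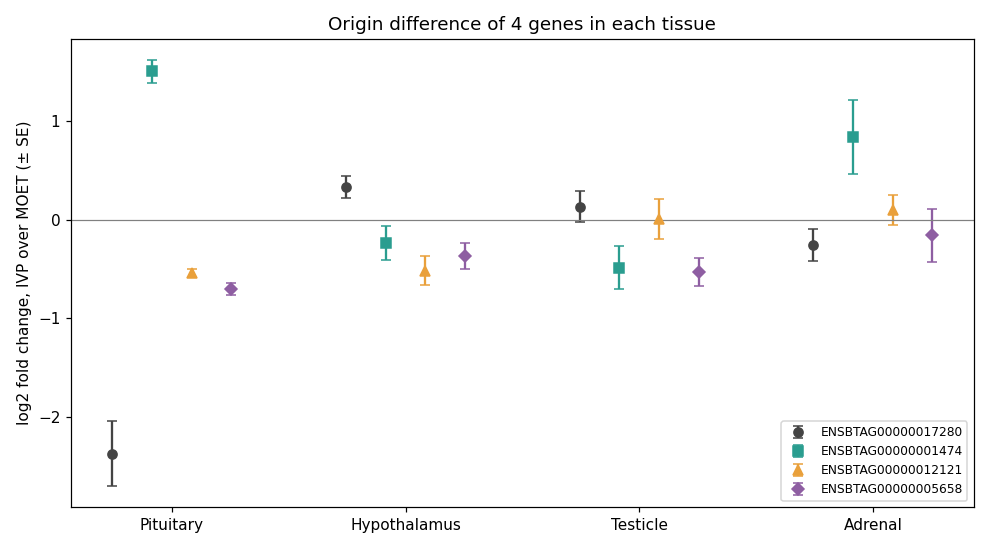
Fitted log2 fold change of IVP over MOET with its SE for the 4 genes in each tissue, 1 marker and colour per gene, with a line at 0. The pituitary values run from -2.37 to 1.50, and the other tissues from -0.53 to 0.84.

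In the adrenal, IVP and MOET calves overlapped for all 4 genes, where groups were apart for 39.0% of all genes tested. Calf IVP 3209 was the highest of the 8 adrenals for each of the 4. For ENSBTAG00000001474 it stood at 16.1 CPM, against 4.30, 8.42 and 5.25 CPM in IVP 3208, 5833 and 5841 and 4.48 to 5.24 CPM in MOET calves. ENSBTAG00000005658 was at 28.8 CPM in this library and at 11.5 to 17.2 CPM in the other IVP adrenals. ENSBTAG00000017280 was at 31.7 CPM in it and at 18.3 to 23.3 CPM in the other three, all of them below the MOET range of 26.0 to 29.0 CPM. IVP 3209 was the highest adrenal for 37.5% of all genes tested, so the position is not particular to these 4.

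The adrenal values therefore turned on this calf. Without IVP 3209 the log2 fold change went from 0.84 to 0.34 for ENSBTAG00000001474, from -0.25 to -0.44 for ENSBTAG00000017280, from -0.16 to -0.49 for ENSBTAG00000005658 and from 0.10 to -0.05 for ENSBTAG00000012121. In that fit ENSBTAG00000017280 and ENSBTAG00000005658 passed the threshold in the adrenal, where 40.7% of all genes did. Both were lower in IVP, as in the pituitary. Without IVP 3208, ENSBTAG00000001474 passed, with 1.06 as its log2 fold change and 52.5% of all genes called. With all 8 calves it also passed in the fit of all 32 libraries, at a log2 fold change of 0.84, where 26.7% of all genes were called in the adrenal.

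IVP calves varied more among themselves than MOET calves in the hypothalamus and adrenal for all 4 genes. In the adrenal the coefficient of variation was 27.0% in IVP and 4.50% in MOET for ENSBTAG00000017280, and 62.8% and 7.42% for ENSBTAG00000001474. It was 22.5% and 9.92% for ENSBTAG00000012121 and 43.8% and 15.9% for ENSBTAG00000005658. The share of all genes with the larger variation in IVP was 79.7% in the adrenal and 57.9% in the hypothalamus. Without IVP 3209 the adrenal variation in IVP was 13.7%, 36.0%, 12.8% and 21.0% for the 4 genes in the same order, still above the MOET values. In the hypothalamus ENSBTAG00000001474 went from 27.7% to 8.46% without that calf, under the 9.25% of MOET calves. The others stayed above MOET calves there without it. ENSBTAG00000017280 was at 9.97% against 4.66%, ENSBTAG00000012121 at 15.1% against 10.3% and ENSBTAG00000005658 at 20.9% against 4.58%. In the pituitary ENSBTAG00000017280 went the other way, with 6.08% in IVP and 41.3% in MOET. The other 3 genes varied more in IVP pituitaries, as did 45.8% of all genes. In the testicle 3 of the 4 genes varied more in IVP calves, as did 71.3% of all genes.

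Because every calf gave both tissues, pituitary and hypothalamus can be set side by side within an animal. ENSBTAG00000017280 in the pituitary was 0.0616 to 0.0903 times its level in the hypothalamus of the same IVP calf, and 0.194 to 0.680 times in MOET calves. ENSBTAG00000001474 gave 0.396 to 0.966 in IVP and 0.146 to 0.218 in MOET calves, so these ranges were apart in the opposite direction. ENSBTAG00000012121 gave 0.894 to 1.33 and 0.981 to 1.16, with the pituitary higher in 3 of 4 calves of either origin. For this gene IVP calves lay below MOET calves in both tissues, and the ratio between the tissues did not part by origin. ENSBTAG00000005658 gave 0.425 to 0.725 in IVP and 0.665 to 0.731 in MOET calves.

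**Figure D3:**
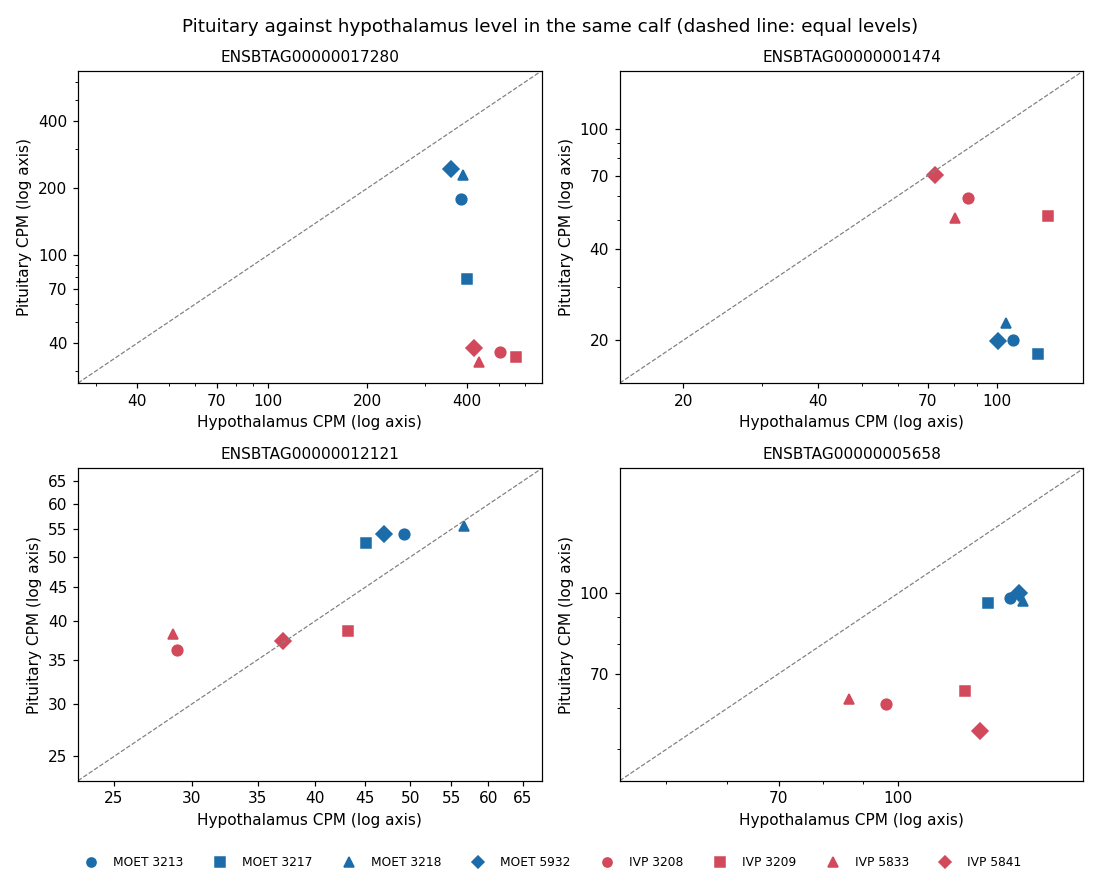
Pituitary CPM against hypothalamus CPM of the same calf, both on log axes, 1 panel per gene, with MOET calves in blue, IVP calves in red and a dashed line where the levels are equal. For ENSBTAG00000017280 and ENSBTAG00000001474 the calves part along the pituitary axis, and for ENSBTAG00000012121 they lie along the dashed line with MOET calves at the upper end.

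The order of the tissues changed with origin for 1 gene. In MOET calves ENSBTAG00000017280 was highest in the hypothalamus (384 ± 17.9 CPM), then the pituitary (182 ± 75.4 CPM), the testicle (50.2 ± 9.36 CPM) and the adrenal (27.5 ± 1.23 CPM), and no neighbours in this order overlapped (SD, n = 4). In IVP calves the pituitary came after the testicle, at 33.2 to 38.1 CPM against 46.4 to 64.4 CPM. The other orders were the same for both origins in group means. ENSBTAG00000001474 and ENSBTAG00000005658 ran from the hypothalamus over the pituitary and adrenal to the testicle, with neighbours apart in each origin. ENSBTAG00000012121 was highest in the pituitary, whose range overlapped that of the hypothalamus in both origins, and the adrenal and testicle overlapped as well.

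The genes were chosen for an origin difference, and their levels among the hypothalamus, testicle and adrenal, averaged over both origins, are another comparison. These levels were tested with edgeR's quasi-likelihood test and p-values adjusted over all genes and the 3 pairs of tissues. All 4 genes were higher in the hypothalamus than in the testicle, where 39.2% of genes were, and than in the adrenal, where 38.8% were. Between hypothalamus and testicle the log2 difference was 6.36 (SE 0.24, adjusted p = 4.68e-16) for ENSBTAG00000001474, the widest of the 4, and 1.58 (SE 0.13, adjusted p = 2.96e-10) for ENSBTAG00000012121, the narrowest. ENSBTAG00000005658 and ENSBTAG00000017280 lay between, at 4.21 (SE 0.16, adjusted p = 5.44e-16) and 3.05 (SE 0.11, adjusted p = 4.50e-16).

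Over the adrenal, the hypothalamic level was higher by log2 values of 4.07 for ENSBTAG00000017280 (SE 0.12, adjusted p = 1.05e-17), 3.96 for ENSBTAG00000001474 (SE 0.21, adjusted p = 1.20e-13), 2.69 for ENSBTAG00000005658 (SE 0.15, adjusted p = 3.05e-13) and 1.12 for ENSBTAG00000012121 (SE 0.13, adjusted p = 6.61e-08). The adrenal exceeded the testicle for 3 of the 4, with log2 differences of 2.40, 1.52 and 0.46 for ENSBTAG00000001474, ENSBTAG00000005658 and ENSBTAG00000012121 (adjusted p = 2.98e-09, 5.61e-09 and 0.00253). The background for that direction was 36.1% of genes. ENSBTAG00000017280 was lower in the adrenal than in the testicle by a log2 difference of -1.01 (SE 0.11, adjusted p = 2.44e-08), as were 39.3% of genes. The tests were repeated with the calf as a block, since the 3 tissues came from the same animals, and no call changed. Each of these differences between tissues had the same sign in 8 of 8 calves.

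All 4 genes were thus read at a higher level in the hypothalamus than in the testicle and adrenal, and neural tissue can be part of a pituitary or adrenal sample. Genes at least 8-fold higher on average in the hypothalamus than in each other tissue, 524 in all, were chosen on these libraries by tissue and not by origin. In the pituitary they took 0.190% to 0.249% of counts in IVP and 0.178% to 0.273% in MOET calves, with 483 and 476 of the 524 genes read. The ranges of IVP and MOET pituitaries overlapped. In the testicle the same genes took 0.191% to 0.207% of counts in IVP and 0.212% to 0.267% in MOET calves. These ranges overlapped those of the pituitary. The 8-fold rule leaves out genes read at similar levels in the hypothalamus and pituitary, so the share is only a partial gauge of neural tissue. Within MOET pituitaries the share was 0.178% in 3218, 0.192% in 3217, 0.210% in 3213 and 0.273% in 5932, where ENSBTAG00000017280 stood at 230.1, 77.7, 178 and 244 CPM in the same order. The calf with the highest share had the highest level, and the calf with the lowest share had the second highest. Within IVP pituitaries the share was 0.190% in 5833, 0.195% in 3208, 0.217% in 3209 and 0.249% in 5841, where ENSBTAG00000001474 stood at 50.8, 59.2, 51.4 and 70.2 CPM. For this gene the IVP calves with the lowest and the highest share also had the lowest and the highest level. In MOET pituitaries it went otherwise, with its highest level, 22.8 CPM, in 3218, the calf with the lowest share. ENSBTAG00000005658 was lowest among IVP pituitaries, at 54.4 CPM, in 5841, the calf with the highest share. Genes enriched in the pituitary by the same measure, 197 in all, took 24.1% to 32.5% of counts in IVP and 25.0% to 38.3% in MOET pituitaries, which overlapped too.

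In the adrenal the hypothalamus-enriched share was 0.289% in IVP 3209 and 0.199% to 0.235% in the other 7 libraries. The library in which the 4 genes were highest thus also had the highest share. This was not particular to hypothalamus-enriched genes. By the same measure its share of adrenal-enriched genes was also the highest, at 2.00% against 0.686% to 1.32%. So was that of pituitary-enriched genes, at 0.0344% against 0.0178% to 0.0245%. Its testicle-enriched share was the lowest, at 0.224% against 0.268% to 0.362%. The part of neural tissue in the pituitary and adrenal values of the 4 genes was not tested.

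**Figure D4:**
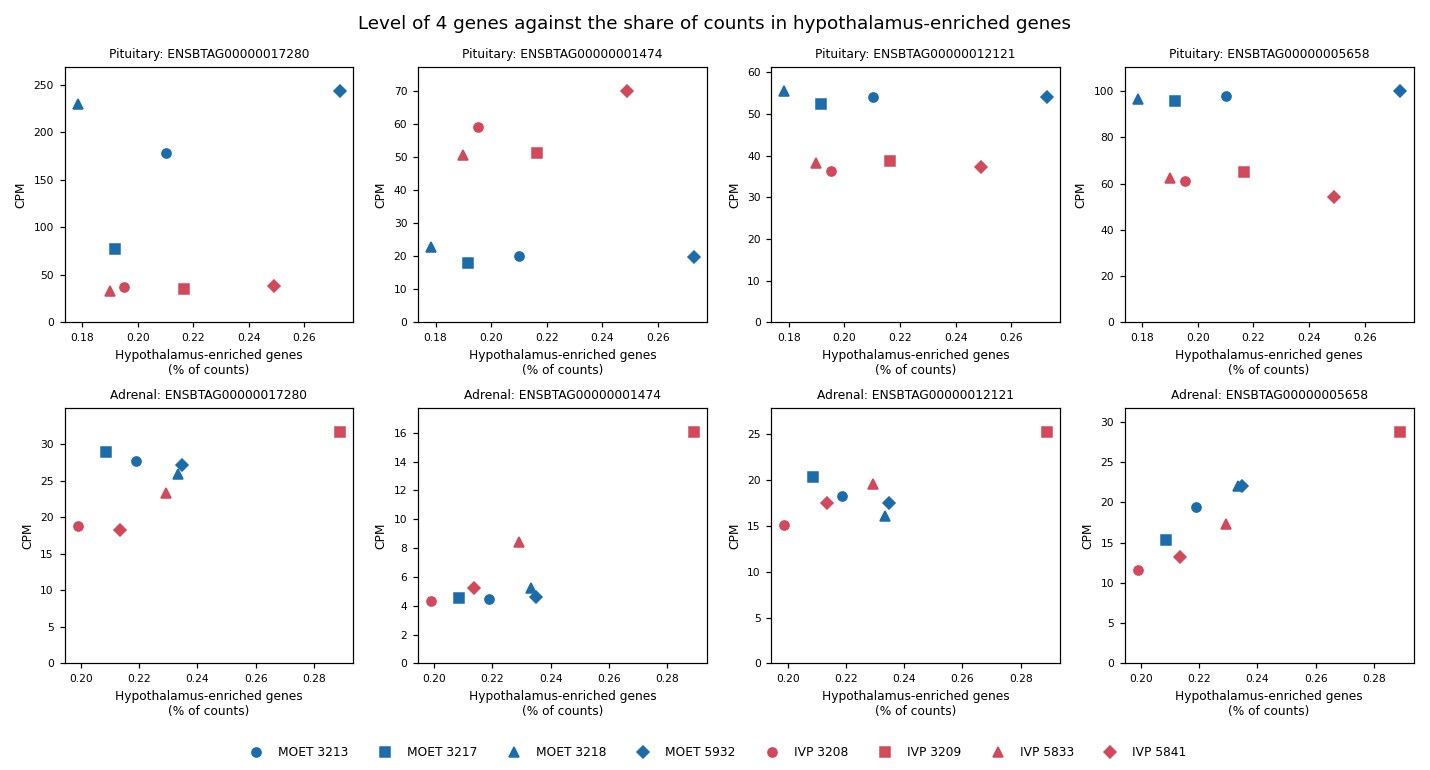
CPM of each of the 4 genes against the percentage of counts in the 524 hypothalamus-enriched genes, in the 8 pituitaries (upper row) and the 8 adrenals (lower row), with MOET calves in blue and IVP calves in red. In the pituitary the shares of both origins overlap and MOET 5932 is farthest right, and in the adrenal IVP 3209 is at the far right and top of all 4 panels.

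Other genes shared the course of each of the 4 over tissues and calves. Over all 32 libraries the highest Pearson correlation of log2 CPM with any other gene tested in the pituitary was 0.94 for ENSBTAG00000017280, 0.98 for ENSBTAG00000001474, 0.98 for ENSBTAG00000012121 and 0.99 for ENSBTAG00000005658. Correlations above 0.9 were found with 70 genes for ENSBTAG00000017280, and with 620, 252 and 645 for the others in the same order. The 32 libraries fall into 4 tissues and share calves, so these values mostly describe tissue levels, and they carry no test. ENSBTAG00000017280 had the fewest such genes of the 4. IDs without names are not listed.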

How the data were processed

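The deposited values are raw counts per Ensembl gene ID for 32 libraries. Per the labels' protocols, poly(A) RNA was sequenced without strand information after filtering with SOAPnuke. STAR 2.7, HTSeq and the bosTau9 build are named in the submitters' processing notes. The sources used here do not give the annotation or the counting settings. Without strand, reads of a gene and of one that overlaps it in antisense cannot be told apart. How such reads were counted is not known. The reference table matched 0 IDs to symbols, so the planned marker and gene lists were not used and no sequence is shown.

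Origin was fitted in each tissue with edgeR 4.0.16 across all genes: filterByExpr (minimum count 10, minimum total 15), TMM factors, robust quasi-likelihood test, Benjamini-Hochberg adjustment, threshold 0.05. The SE is the log2 fold change over the root of F. Tissue levels were fitted over 24 libraries with origin within tissue. The fits were also run on simulated counts with independent libraries and the same dispersion for every gene. Such counts lack shared calves and unequal spread, so they check the code and not the error rates in these data. Alternatives used DESeq2 1.42.0, limma 3.58.1 (voom), other filters and scalings, age, and each calf left out. R was 4.3.3, Python 3.11.15 and matplotlib 3.10.9.

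The 4 genes and the lists were chosen with earlier results of these data known. The genes named are these 4; for the most similar genes only correlations (log2 CPM, prior count 2) are given. No 2 libraries of a group were identical among 48 pairs (chi-square per degree of freedom at least 5.12). By the labels, animal numbers pair the tissues of a calf but not IVP with MOET; deviations of a calf correlated between hypothalamus, testicle and adrenal (the pituitary was not included) from -0.48 to 0.66, above 0.1 in 11 of 24 pairs. Precision is limited by 4 calves per group.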

Additional observations from a re-analysis of the deposited data

Results flagged for a closer look

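ENSBTAG00000017280 was apart between the origins in both the hypothalamus and the pituitary, in opposite directions. Every IVP calf was above every MOET calf in the hypothalamus (log2 fold change 0.33) and below in the pituitary (-2.37). ENSBTAG00000001474 was apart in the testicle, with every IVP calf lower (log2 fold change -0.48), and in the pituitary, with every IVP calf higher (1.50); under 2 other scalings the testicle groups overlapped. The difference between tissues was not tested for either gene, because the genes were chosen on it. No single library stood far enough from the other 3 of its group by Dixon's criterion in any of the 32 sets of 4 values examined (4 genes in 8 groups of libraries, so the sets share libraries), where chance alone would mark about 5%.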

How the results depend on the processing

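The pituitary log2 fold changes of the 4 genes kept their direction and moved by less than 1 SD between calves in 56 of 56 alternatives. Their log2 fold changes in the other tissues also moved by less than that SD in 168 of 168. Leaving out 1 of 4 calves can hardly move a mean by that SD, so for those alternatives the limit shows little. Without IVP 3209, ENSBTAG00000012121 changed sign in the testicle (0.01 to -0.17) and in the adrenal (0.10 to -0.05). In the pituitary, leaving out 1 calf gave -2.62 to -2.20 for ENSBTAG00000017280 and 1.39 to 1.57 for ENSBTAG00000001474. It gave -0.56 to -0.52 for ENSBTAG00000012121 and -0.74 to -0.65 for ENSBTAG00000005658. With the calf as a replicate block in limma voom the pituitary values of the 4 genes, in the same order, were -2.22, 1.52, -0.52 and -0.69. All 144 alternatives of the tested tissue levels kept direction and call; with the replicate block ENSBTAG00000012121 differed between adrenal and testicle by 0.47 (edgeR adjusted p = 5.82e-04, over a range up to 0.0123).

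Which genes were called besides these 4 depended strongly on the fit. The number called was 2417 in the pituitary, 340 with all 32 libraries in 1 fit and 266 with age, and 378 (without MOET 3213) to 2822 (without MOET 5932) with 1 calf left out. It was also 782, 1314 and 1400 without IVP 3208, 3209 and 5833. In the hypothalamus it was 9 (3853 at an unadjusted p under 0.05), 1250 in DESeq2, 2018 in 1 fit and 5 with age, and 1 (without MOET 3213) to 44 (without IVP 3209). In the testicle it was 1 (1478 unadjusted), 289 in DESeq2 and 180 in 1 fit, and 0 (without MOET 3217) to 9 (without IVP 3209). In the adrenal it was 6068, 2905 with age, and 2424 (without MOET 3218) to 8234 (without IVP 3208). The cause was not tested. Of the 4 genes, 3 were called in the pituitary in the fit of all 32 libraries, where 1.86% of all genes were. All 4 were called in every other alternative, where 1.67% to 19.0% of all genes were. The 4 were chosen for this difference, so nothing is read from these counts. Groups were apart for 3 genes in the hypothalamus and 2 in the testicle, and for 1 and 1 with library totals alone, a comparison added after the data were seen. Among all genes, 4.97% were apart and lower and 5.01% apart and higher in the hypothalamus. In the testicle 4.80% were apart and lower. These shares were taken with TMM factors only. At 18 to 36 counts per library, ENSBTAG00000001474 in the testicle is the value that depth limits most.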
